A study of Mus musculus with 99 samples.

Results

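RNA-seq libraries of mouse embryonic stem cells (ESCs) expressing RING1B I53S were compared after treatment with 4-hydroxytamoxifen (OHT) or with its ethanol vehicle, to ask which transcripts change when a RING1B that cannot ubiquitinate histones is the only RING1 protein left in the cell. The libraries were taken by their labels alone, 2 with OHT and 2 with vehicle, and are 4 of the 99 samples in the series. The cells are a conditional line with an OHT-inducible Cre recombinase at ROSA26 (creERT2), deleted for RING1A and floxed at RING1B, so RING1A was missing from both groups. A stably integrated vector with the CAG promoter expressed FLAG-HA-tagged RING1B I53S, in which a missense change removes the E3 ligase activity, and it was present with and without OHT. Vehicle cells (−OHT) therefore held endogenous RING1B beside the mutant, and cells given 0.5 µM OHT for 72 h (+OHT) held the mutant alone. RING1B WT cells carry the same kind of vector with the wild-type protein, and Parental cells carry none; both have the same RING1A deletion and floxed RING1B, and 4 libraries of each, 2 per treatment, were fitted together with the I53S libraries. The I53S cells are a single engineered line selected with puromycin, grown on gelatin in medium with serum, LIF and 2 kinase inhibitors.

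RING1A and RING1B are the interchangeable catalytic subunits of Polycomb repressive complex 1 (PRC1), which places a single ubiquitin on a lysine of histone H2A (H2AK119ub1). PRC1 and PRC2, which methylates histone H3 (H3K27me3), occupy CpG-rich promoters of developmental regulators that are silent in ESCs. Canonical PRC1 binds H3K27me3 through CBX proteins, whereas variant forms hold RYBP or YAF2 in their place, and the variant with PCGF6 contains the sequence-specific factors MGA, MAX and E2F6 and is known from promoters of germline genes.

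Promoters of both kinds of responding gene are shown first, because the higher and the lower genes differed in what lay on their promoters. Each run of 300 bases reaches from 250 bases before to 50 bases after a RefSeq start (build GRCm38.p6), 5′ to 3′ on the strand of the gene, with every CpG in capitals. Gata3 (chr2:9878551-9878850, minus strand) rose with the lowest p of all genes, Barx1 (chr13:48662786-48663085, plus strand) was at 0 counts without OHT, and Tdgf1 (chr9:110946109-110946408, minus strand) fell.
Gata3: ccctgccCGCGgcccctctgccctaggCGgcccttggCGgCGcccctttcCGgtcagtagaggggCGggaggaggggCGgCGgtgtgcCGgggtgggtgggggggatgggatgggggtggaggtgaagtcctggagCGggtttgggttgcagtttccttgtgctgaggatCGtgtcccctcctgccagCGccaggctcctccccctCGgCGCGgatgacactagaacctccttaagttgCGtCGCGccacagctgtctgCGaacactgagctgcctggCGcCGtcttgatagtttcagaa
Barx1: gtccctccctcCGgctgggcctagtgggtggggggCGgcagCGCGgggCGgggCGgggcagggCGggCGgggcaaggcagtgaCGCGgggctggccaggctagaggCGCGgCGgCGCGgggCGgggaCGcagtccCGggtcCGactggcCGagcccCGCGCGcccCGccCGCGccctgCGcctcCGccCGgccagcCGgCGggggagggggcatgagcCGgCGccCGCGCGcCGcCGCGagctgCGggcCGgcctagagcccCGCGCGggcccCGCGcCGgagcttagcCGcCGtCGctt
Tdgf1: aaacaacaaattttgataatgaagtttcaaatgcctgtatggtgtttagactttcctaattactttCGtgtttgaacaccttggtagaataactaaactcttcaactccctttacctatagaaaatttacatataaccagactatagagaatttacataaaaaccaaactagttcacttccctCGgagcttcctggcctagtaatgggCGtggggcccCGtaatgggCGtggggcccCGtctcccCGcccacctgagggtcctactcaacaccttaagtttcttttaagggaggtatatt
The Gata3 window held 22 CpG, the Barx1 window 50 and the Tdgf1 window 7, and that of Trh, another gene that fell, held 28. These counts do not stand for higher and lower genes at large: only 12432 of the 18154 genes tested (68.5%) had a sequence in the RefSeq table, so a comparison of CpG between the classes is void. Within 2.5 kb of the annotated start sites of Gata3, H2AK119ub1 peaks covered 10874 bases in untreated Parental cells and 0 bases in I53S cells with OHT, and H3K27me3 peaks 16405 and 8899 bases. At Barx1 the covered lengths were 4387 and 2441 bases for H2AK119ub1 and 4555 and 4088 bases for H3K27me3. No peak of either mark lay at Tdgf1 in either library.

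The libraries held 12732968 and 11076441 counted reads with vehicle and 8701279 and 11124825 with OHT. The I53S OHT pair differed more per gene than the pairs of the other 5 groups (a chi-square of 25.7 per gene against 6.48 to 16.9). Nothing in the sources says that replicates came from separate cultures, so the p-values below measure the spread between these libraries. All 8 ESC markers were detected, with summed levels of 3976 and 5006 CPM (counts scaled to a common library size with TMM factors) with vehicle and 2765 and 2865 CPM with OHT. Markers of fibroblasts, the usual feeder cells, summed to 25.4 and 24.6 CPM with vehicle and to 59.4 and 71.6 CPM with OHT, with Dcn, Lum, Fap and S100a4 of the 10 at 0 in all 4 libraries; their part in the results was not tested. Of 4 fibroblast markers tested Col1a2 was higher, of 5 markers of two-cell-like cells Tmem92, and of 3 macrophage and blood genes Hba-a1; Tmem92 and Hba-a1 were not called without vehicle replicate 2 or without OHT replicate 2. Rnf2, which encodes RING1B, was at 257 and 281 CPM with vehicle and at 166 and 238 CPM with OHT (log2 fold change −0.41, edgeR adjusted p = 0.127). Reads of the transgene and of the floxed alleles fall on this one name, and in Parental cells, without a transgene, the log2 fold change was −0.55, so the count does not check the deletion. Ring1 (RING1A) was at 4.01 and 3.74 CPM with vehicle and at 2.5 and 1.03 CPM with OHT.

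Far more transcripts rose than fell with OHT in I53S cells. Of 18154 genes tested, 2323 (12.8%) were higher and 188 (1.04%) were lower with OHT, at a log2 fold change of at least 1.5 and an adjusted p under 0.05. A gene that was higher rose by a median of 2.7 on the log2 scale (quartiles 2.03 and 3.76), 1776 of the 2323 rose at least 4-fold and 483 at least 16-fold. In 2319 of the 2323 both OHT libraries were above both vehicle libraries, as in 31.5% of all genes. The lower genes had a median log2 fold change of −1.99, and 10 of the 188 fell at least 16-fold. The median over all genes tested was 0.014. In bulk libraries a change in the number of cells that hold an RNA and a change in its amount per cell cannot be told apart. Of the higher genes, 1290 (55.5%) were called in each of the 4 fits that left out 1 I53S library, and 74 (39.4%) of the lower ones. Without OHT replicate 1 the count of lower genes was 333.

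The higher genes were mostly silent or nearly so before OHT. With vehicle, 2006 of them (86.4%) were under 1 RPKM, against 30.2% of all genes tested, and 149 had no read in either vehicle library. Their median level went from 0.190 RPKM with vehicle to 1.32 RPKM with OHT, and 143 reached at least 10 RPKM. Lower genes started from a median of 3.90 RPKM and reached 0.904 RPKM. Of the higher genes 95.4% were protein coding, and of the lower genes 56.9%, with 29.8% annotated as long noncoding RNAs and 12.8% as pseudogenes, against 83.0%, 10.2% and 6.30% of all genes tested. A gene close to 0 with vehicle entered the test through a group in which it was higher, so the filter on low counts favours low genes among the risers.

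**Figure D1:**
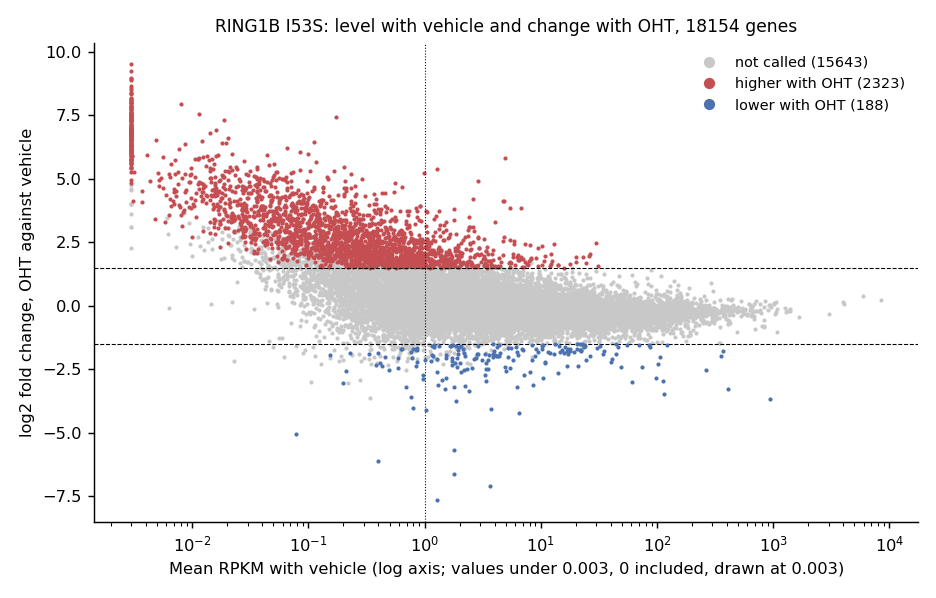
Mean level with vehicle in RPKM (log axis; values under 0.003 drawn there) against the log2 fold change with OHT in I53S cells, 1 point per gene tested, with dashed lines at the fold threshold and a dotted line at 1 RPKM. The 2323 genes called higher lie mainly left of 1 RPKM. Of the 188 called lower, which run from 0.0786 to 930 RPKM, 30 lie left of it.

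The 10 genes that rose with the lowest p encode regulators and signalling or structural proteins of differentiated tissues. Gata3, a transcription factor of the trophoblast and of T cells, was at 0.925 and 0.670 CPM with vehicle and at 35.5 and 36.7 CPM with OHT (log2 fold change 5.46, SE 0.33, edgeR adjusted p = 6.94e-09). Esx1, an X-linked homeobox gene of the placenta, went from 11.9 and 6.99 CPM to 156 and 175 CPM (log2 fold change 4.12, SE 0.26, edgeR adjusted p = 7.72e-09). Ccnd2, the D-type cyclin D2, went from 2.39 and 3.07 CPM to 86.0 and 86.4 CPM (log2 fold change 4.99, SE 0.33, edgeR adjusted p = 9.17e-09). In each of the 3, both OHT libraries lay far above both vehicle libraries, and the OHT libraries lay close together. Col4a1, a basement membrane collagen chain, rose from 12.3 and 8.05 CPM to 87.0 and 97.3 CPM. Id2, which blocks basic helix-loop-helix factors, rose from 21.4 and 11.3 CPM to 243 and 227 CPM. Myl9, a regulatory light chain of smooth muscle myosin, rose from 0.848 and 1.44 CPM to 32.2 and 53.7 CPM. The remaining 4 were Adra2b, an adrenergic receptor (log2 fold change 4.41), Crabp1, a carrier of retinoic acid (2.46), Dlk1, an imprinted relative of the Notch ligands (5.36), and Ly6h, a membrane-anchored protein of the brain (3.71). Crabp1 had the highest level of these 4, 25.4 and 22.3 CPM with vehicle and 121 and 140 CPM with OHT.

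Genes with no read in either vehicle library give only a lower bound on the change, taken against 3 counts over the 2 vehicle libraries. Thbs4, a matricellular thrombospondin, had 90 and 100 counts with OHT and was at least 68.6-fold higher. Barx1, a homeobox regulator of stomach mesenchyme and teeth, had 90 and 69 counts and was at least 58.2-fold higher. Foxf1, a forkhead factor of the lateral mesoderm, had 65 and 64 counts and was at least 46.8-fold higher. Alx4, a homeobox gene of the limb and face, and Wnt2, a WNT ligand, were at least 46.2-fold and 44.6-fold higher. All 5 were called in each fit that left out 1 I53S library.

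**Figure D2:**
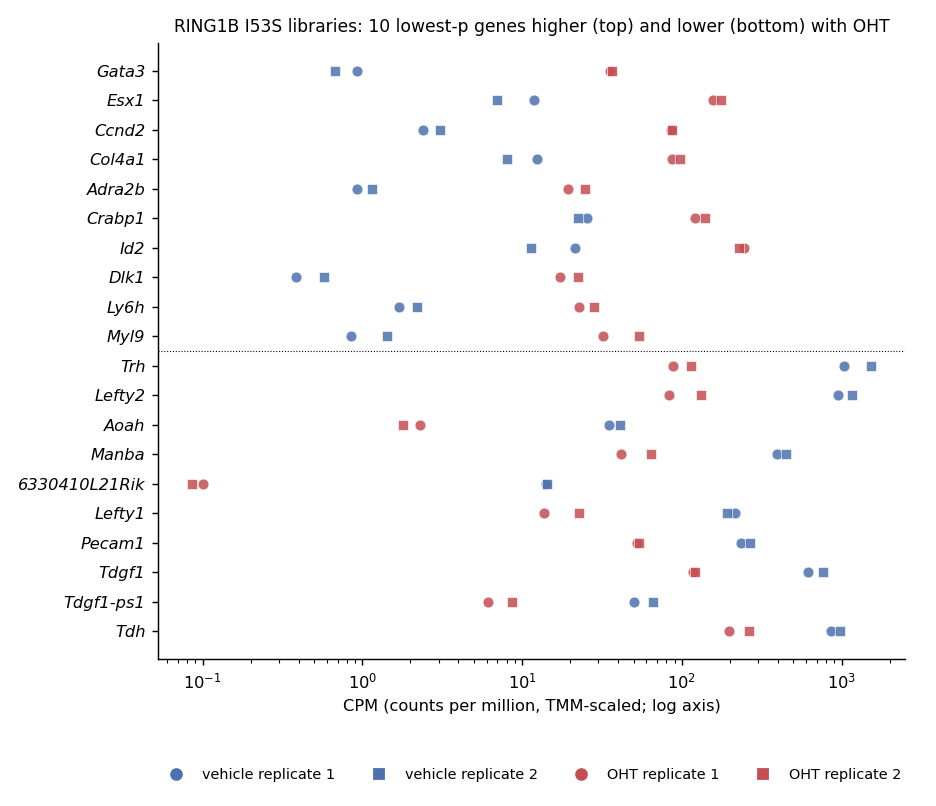
Level of the 10 genes with the lowest p among those higher (above the dotted line) and among those lower with OHT, in CPM on a log axis, with 1 point for each of the 4 I53S libraries. For all 20 genes the vehicle and the OHT libraries do not overlap, from 6330410L21Rik, which goes from 14.1 and 14.4 CPM to 0.0999 and 0.0859 CPM, to Trh, above 1000 CPM with vehicle.

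Many regulators of body plan and lineage rose. Many of them had few counts with vehicle, and 2006 of the 5488 genes under 1 RPKM with vehicle were called higher. Of the 39 Hox genes, the homeobox regulators of position along the body axis, 29 were tested and 25 were higher, none lower, with a median log2 fold change of 4.43, or 3.72 with the 6 genes at 0 in vehicle set to their lower bound. Against 12.8% of all genes called higher, the other lists of lineage regulators gave 23 of 36 neural regulators (median 3.56), 20 of 30 mesoderm regulators (3.19), 12 of 17 endoderm genes (3.17) and 7 of 12 trophoblast genes (1.83). The same medians in WT cells were 2.90 for the Hox genes, 1.30, 1.55, 1.21 and 0.98. In the test of the difference from WT cells given below, no Hox gene passed, which does not show that the effects are equal. In the other lists, in the same order, 1, 1, 2 and 2 members passed for a larger effect in I53S cells.

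Among Hox genes, Hoxb13, a posterior gene, had the lowest p and went from 1.31 and 0.575 CPM to 17.2 and 24.9 CPM (log2 fold change 4.43). Hoxa7, Hoxa9 and Hoxa10 rose by 3.72, 5.18 and 5.95 on the log2 scale. The 10 Hox genes that were not tested had 0 to 7 counts per I53S library. Called members came from all 4 clusters, whose genes lie side by side and are not independent of each other.

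Of the neural regulators, Pax3, a paired-box factor of the dorsal neural tube, went from 0.771 and 1.15 CPM to 16.4 and 17.7 CPM (log2 fold change 4.15). Otx1, a forebrain homeobox gene, went from 3.16 and 0.958 CPM to 25.3 and 27.8 CPM (3.64), and Dlx5 and Msx1, homeobox genes of the head and limbs, rose by 4.93 and 5.27. The 1 member that fell was Foxd3, a forkhead factor of the neural crest that is also active in ESCs, at 2.85 and 4.31 CPM with vehicle and 0.900 and 0.773 CPM with OHT (−2.08); without vehicle replicate 2 it was −1.77 and not called. Of the mesoderm regulators, Pax9, a factor of the sclerotome and pharyngeal pouches, rose from 0.0771 and 0.383 CPM to 11.8 and 9.62 CPM (5.56), Hand1, a factor of heart and placenta, from 1.77 and 1.15 CPM to 12.1 and 15.1 CPM (3.19), and Tbx20, a T-box factor of the heart, by 2.48.

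Of the endoderm genes, Gata6, which drives primitive endoderm, went from 0.154 and 0.0958 CPM to 6.40 and 4.64 CPM (log2 fold change 5.30), and Gata4 rose by 2.33. Col4a2, the partner chain of Col4a1, rose by 3.37. Summed over 8 endoderm markers the level went from 2.93 and 3.83 CPM to 33.9 and 32.3 CPM, and the late products Afp and Ttr had at most 2 counts in any I53S library. Among trophoblast genes Krt7, a keratin of simple epithelia, rose from 11.5 and 9.87 CPM to 45.7 and 46.8 CPM (2.11), Gata2 by 2.45 and Cdx2, a factor that specifies trophectoderm, from 0 and 0.192 CPM to 2.20 and 2.32 CPM (4.53). Eomes, another early trophoblast factor, did not pass (11.0 and 7.76 CPM with vehicle, 13.9 and 10.6 CPM with OHT, edgeR adjusted p = 0.414). Prl3d1 was at 0 in all 4 libraries and Tpbpa, a marker of the spongiotrophoblast, had at most 1 count.

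Secreted ligands of the WNT family rose nearly throughout. Of 19 WNT ligands 16 were higher, with a median log2 fold change of 3.82 (1.53 in WT cells). Wnt3, needed for the primitive streak, went from 1.85 and 0.766 CPM to 15.9 and 22.3 CPM, Wnt5a, a noncanonical ligand, from 1.08 and 0.575 CPM to 9.20 and 9.54 CPM, and Wnt7a rose by 4.30. Wnt5b, Wnt6 and Wnt11 did not pass, at −0.34, 1.28 and 0.85. Wnt2b and Wnt8b were not called without vehicle replicate 2 (1.22 and 3.37) or without OHT replicate 2 (1.18 and 1.99), and Wnt8a (3.48) and Wnt8b (2.52) were not called without vehicle replicate 1. Of 18 BMP, FGF and Hedgehog ligands tested 10 were higher, among them Bmp6 (0.308 and 0.0958 CPM against 5.70 and 5.59 CPM), Bmp8b (log2 fold change 3.20) and Fgf15 (3.48).

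Germline genes formed a further group, with 13 of 23 tested higher, none lower and a median log2 fold change of 1.76 (1.28 in WT cells). Tdrd1, a Tudor-domain protein of the piRNA pathway, went from 1.16 and 1.05 CPM to 19.7 and 25.1 CPM (log2 fold change 4.32). Mael, which acts in the same pathway, went from 10.2 and 8.52 CPM to 47.9 and 65.1 CPM (2.59), and Tex101, a membrane protein of germ cells, rose by 3.39. Sycp1, a component of the synaptonemal complex of meiosis, went from 6.71 and 7.85 CPM to 31.2 and 24.6 CPM (1.94), and Taf7l, a germ cell form of a TFIID subunit, from 2.00 and 2.20 CPM to 17.5 and 24.8 CPM (3.33). The promoters of 3 of them are shown because they hold CACGTG, the E-box letters that MGA and MAX bind, given in capitals (Tdrd1 chr19:56826025-56826324, plus strand; Sycp1 chr3:102936051-102936350 and Taf7l chrX:134476441-134476740, both minus strand).
Tdrd1: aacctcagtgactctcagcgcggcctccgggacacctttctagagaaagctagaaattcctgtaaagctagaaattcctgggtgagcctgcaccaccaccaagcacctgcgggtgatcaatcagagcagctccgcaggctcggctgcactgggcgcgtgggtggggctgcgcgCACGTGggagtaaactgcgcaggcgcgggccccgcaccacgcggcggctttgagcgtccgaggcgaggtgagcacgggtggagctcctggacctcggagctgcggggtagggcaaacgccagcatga
Sycp1: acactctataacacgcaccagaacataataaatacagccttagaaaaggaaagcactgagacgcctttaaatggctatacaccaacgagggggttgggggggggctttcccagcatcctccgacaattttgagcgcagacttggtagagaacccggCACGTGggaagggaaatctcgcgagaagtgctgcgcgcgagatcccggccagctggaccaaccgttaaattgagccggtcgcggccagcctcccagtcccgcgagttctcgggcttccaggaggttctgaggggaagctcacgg
Taf7l: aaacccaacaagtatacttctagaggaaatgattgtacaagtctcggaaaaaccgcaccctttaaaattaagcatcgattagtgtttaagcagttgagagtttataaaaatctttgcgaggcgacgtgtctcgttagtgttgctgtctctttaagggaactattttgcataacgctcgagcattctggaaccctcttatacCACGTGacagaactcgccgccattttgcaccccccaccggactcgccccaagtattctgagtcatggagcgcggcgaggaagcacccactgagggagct
The letters stand 77, 94 and 49 bases before the start (Tdrd1 has 3 starts in the RefSeq table, of which 1 is shown). Since CACGTG reads the same on both strands, 1 search covers both. With 1 start per gene, the one with the most CpG, CACGTG was found in 13 of the 21 germline promoters in the RefSeq table (61.9%). Counted the same way, the share was 10.2% of the 12432 promoters of genes tested and 8.94% of those of higher genes. Over all 32851 promoters of the table, with every start counted, it was 7.15%. The germline list was chosen with earlier results of these data known. Sycp3, Stag3, Stk31, Hormad1 and Ddx25, which were not called, also hold CACGTG. Sycp2, Smc1b, Tex101 and Zcwpw1, which were higher, do not. A link between these letters and the rise was not tested. Peaks of PCGF6 lay at 22 of the 23 germline promoters in untreated Parental cells and at 20 of 23 in I53S cells with OHT, while RING1B peaks went from 16 to 2, H2AK119ub1 peaks from 13 to 5 and H3K27me3 peaks from 17 to 4. Over all risers PCGF6 peaks went from 51.7% to 17.3%.

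The genes that fell with the lowest p include components of Nodal signalling, a TGF-beta pathway that is active in ESCs. Lefty2, a secreted Nodal inhibitor and Nodal target, was at 954 and 1164 CPM with vehicle and at 83.5 and 131 CPM with OHT (log2 fold change −3.30, SE 0.22, edgeR adjusted p = 9.17e-09). Lefty1, its paralogue, went from 214 and 191 CPM to 13.8 and 22.6 CPM (−3.47). Tdgf1, the Nodal co-receptor Cripto whose promoter is shown above, went from 616 and 770 CPM to 118 and 121 CPM (−2.53). These were the 3 of 18 Nodal pathway genes called, and the ligand Nodal itself was at 146 and 213 CPM with vehicle and at 91.4 and 143 CPM with OHT (−0.61, edgeR adjusted p = 0.0770). Over the 18 genes, which include the receptors and SMADs, the median log2 fold change was −0.26. Tdgf1-ps1, a processed copy of Tdgf1, fell by 2.97 on the log2 scale and may share reads with it.

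Trh, the precursor of thyrotropin-releasing hormone, went from 1043 and 1532 CPM to 88.6 and 114 CPM (log2 fold change −3.66, SE 0.24, edgeR adjusted p = 9.17e-09). Tdh, the threonine dehydrogenase on which mouse ESCs depend, went from 863 and 983 CPM to 199 and 264 CPM (−2.0). Manba, a lysosomal beta-mannosidase, went from 397 and 452 CPM to 41.5 and 63.7 CPM (−3.01). In each of them both OHT libraries lay under the lower vehicle library. Aoah, an enzyme that deacylates bacterial lipopolysaccharide, fell from 35.2 and 41.1 CPM to 2.30 and 1.80 CPM (−4.21), and Pecam1, an adhesion molecule also on the surface of naive ESCs, from 235 and 269 CPM to 52.7 and 53.9 CPM (−2.24). 6330410L21Rik, annotated as an antisense transcript, had 183 and 150 counts with vehicle and 1 in each OHT library (−7.09). The counts ignore strand, so its reads and those of an overlapping gene cannot be told apart.

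Pluripotency genes had smaller changes. None of 25 rose and 4 fell, with a median log2 fold change of −0.81, and in 22 of 25 both OHT libraries were under both vehicle libraries, as in 25.8% of all genes tested. Nr0b1 (DAX1) went from 165 and 205 CPM to 30.0 and 45.5 CPM (−2.29), Prdm14 from 43.6 and 47.2 CPM to 11.4 and 14.6 CPM (−1.80), Zfp42 (REX1) from 566 and 821 CPM to 205 and 198 CPM (−1.78) and Klf2 from 1108 and 1242 counts to 377 and 380 counts (−1.54). The core factors did not pass the fold threshold. Pou5f1 (OCT4) was at 443 and 466 CPM with vehicle and 282 and 315 CPM with OHT (−0.60), Nanog at 324 and 545 against 221 and 168 CPM (−1.16) and Sox2 at 172 and 188 against 92.0 and 60.2 CPM (−1.25). Without vehicle replicate 2 Zfp42 (−1.5) and Klf2 (−1.29) were not called, nor was Klf2 without OHT replicate 2 (−1.45). Of 12 genes of the primed epiblast, the state after naive pluripotency, Sox3 (5.17), Fgf5 (4.05), Pou3f1 (2.72) and Cdh2 (1.92) rose.

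Of 26 genes for PRC1 subunits 4 were higher and none lower, and of 13 for PRC2 subunits 1 was higher, beside 12.8% of all genes called higher. Cbx8, a chromodomain subunit of canonical PRC1, went from 4.63 and 2.39 CPM to 16.9 and 25.4 CPM (2.57). Phf19, a PRC2.1 subunit, went from 2.24 and 1.53 CPM to 8.10 and 8.59 CPM (2.13). Bcorl1 (1.57) and Pcgf5 (1.53), of variant PRC1, were called in the fit of all libraries, but not without vehicle replicate 2 (1.25 and 1.45), and Pcgf5 not without OHT replicate 1 (1.49). None of 14 housekeeping genes was called (median −0.30).

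Of 18 cell cycle genes 4 were called higher, beside 12.8% of all genes. Next to Ccnd2 these were 3 inhibitors of cyclin-dependent kinases: Cdkn1c (p57), from 1.54 and 0.958 CPM to 20.4 and 13.4 CPM (3.72), Cdkn2c (3.61) and Cdkn2b (1.53). Cdkn2c was not called without vehicle replicate 2 (3.18), and Cdkn2b without vehicle replicate 2 (1.37) or OHT replicate 2 (1.10). Of 16 targets of p53 4 were called higher, beside the same 12.8%, Fas, a death receptor (2.54), Perp (1.81), Btg2 (1.68) and Pmaip1 (1.65), and Cdkn1a, the best known target, was at 430 and 435 CPM with vehicle and 648 and 659 CPM with OHT (0.60, not called). Perp (1.45) and Pmaip1 (1.49) were not called without vehicle replicate 2, nor Btg2 (1.46) and Pmaip1 (1.28) without OHT replicate 2.

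Of 13 feedback genes of ERK signalling 3 were higher and 1 lower, beside 12.8% and 1.04% of all genes. Their summed level was 567 and 578 CPM with vehicle and 335 and 2035 CPM with OHT, so the OHT libraries lay on both sides. Etv4, an ETS factor, went from 0.231 and 0.287 CPM to 3.50 and 7.05 CPM (4.30), and Etv5, its relative, from 332 and 370 CPM to 115 and 125 CPM (−1.55); without vehicle replicate 2 or OHT replicate 1 Etv5 was at −1.48 and not called. Fos and Egr1, immediate early genes, were far higher in OHT replicate 2 than in the other 3 I53S libraries. Fos had 191 and 88 counts with vehicle and 482 and 14646 with OHT, and Egr1 70 and 64 counts with vehicle and 59 and 5610 with OHT. Without OHT replicate 2 their log2 fold changes were 2.03 and 0.025 and neither was called; without vehicle replicate 2 neither passed either (5.47 and 5.50), nor Egr1 without vehicle replicate 1 (5.32).

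Peaks were then compared over the promoters, defined as windows reaching 2.5 kb upstream and downstream of each annotated start, in single ChIP-seq libraries. In untreated Parental cells H2AK119ub1 peaks lay at 66.7% of the higher genes (95% Wilson interval 64.8% to 68.6%), at 9.57% of the lower genes (6.14% to 14.6%) and at 25.9% of all genes tested. H3K27me3 peaks lay at 83.9% of the higher genes, 7.98% of the lower genes and 28.7% of all genes, and RING1B peaks at 65.1%, 7.45% and 19.8%. In I53S cells with OHT H2AK119ub1 peaks were left at 698 of the 2323 higher genes (30.0%), RING1B peaks at 120 (5.17%), H3K27me3 peaks at 1195 (51.4%) and SUZ12 peaks, of a core PRC2 subunit, at 966 (41.6%, from 79.5%). In WT cells with OHT H2AK119ub1 peaks lay at 71.7% of the same genes, RING1B peaks at 56.1% and H3K27me3 peaks at 80.2%. Of the 29 Hox genes tested, RING1B peaks lay at 29 in untreated Parental cells and at 2 in I53S cells with OHT, H2AK119ub1 peaks at 29 and 15, and H3K27me3 peaks at 28 and 27. For each mark and condition 1 library was used, and a peak list depends on the depth of its library. A lost peak therefore gives no amount of lost signal, and a peak that is left gives no amount of mark kept. From signal scaled to added Drosophila chromatin, the paper reports that H2AK119ub1 was completely lost at PRC1 targets in I53S cells with OHT. The H2AK119ub1 list of I53S cells with OHT held 3120 peaks and that of untreated Parental cells 12648.

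Promoters were then grouped by the peaks of the 2 marks in untreated Parental cells, with 1 library per mark. Of genes with H2AK119ub1 and H3K27me3 peaks in untreated Parental cells 41.4% (1530 of 3694) were higher with OHT in I53S cells, of those with H3K27me3 alone 27.8% (419 of 1509), of those with H2AK119ub1 alone 1.99% (20 of 1005) and of those with neither 2.96% (354 of 11946). Of the 1509 genes with H3K27me3 alone, 962 also lacked an H2AK119ub1 peak in WT cells with OHT, and 259 of these (26.9%) were higher. The rest had such a peak there, so a missing peak in 1 library does not show that the mark is absent. Level with vehicle differs among the classes, so genes were split at 1 RPKM. Under 1 RPKM the shares were 63.2% with both marks, 46.2% with H3K27me3 alone, 9.03% with H2AK119ub1 alone and 12.4% with neither. At 1 RPKM or more they were 13%, 7.27%, 0.706% and 0.537%. The order of the first 2 classes above the other 2 held at both levels.

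**Figure D3:**
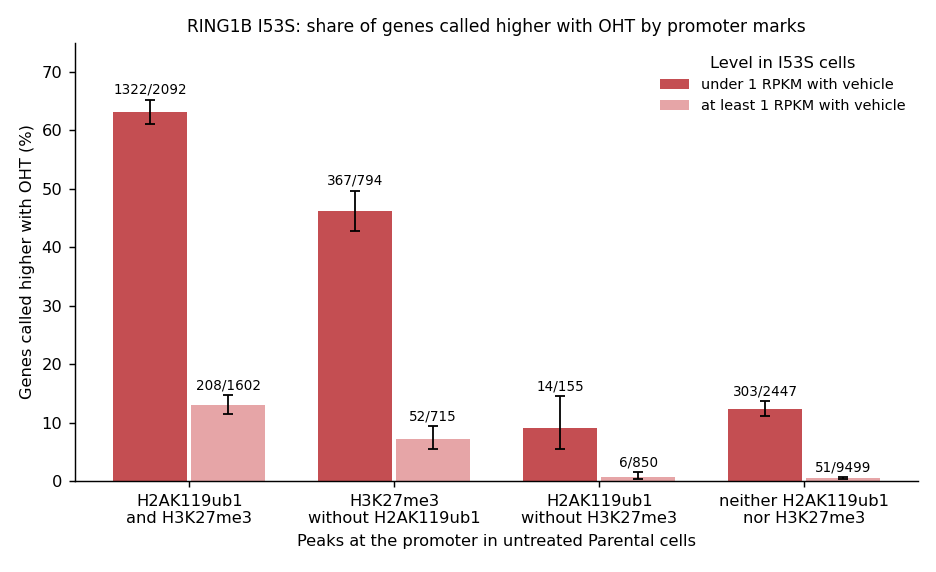
Share of genes called higher with OHT in I53S cells (bars, with 95% Wilson intervals and counts above them), by the peaks at their promoters in untreated Parental cells and by their level with vehicle. Among genes under 1 RPKM the share is 63.2% with both marks and 46.2% with H3K27me3 alone, and in each class it is smaller for genes at 1 RPKM or more.

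The share of risers also went with the length of promoter under H2AK119ub1. This length was summed over the windows of all annotated starts of a gene. It can therefore grow with the number of starts and is not the width of a domain alone. It was 5.75% of 13455 genes with no peak, 15.2% with less than 1 kb covered, 26.7% with 1 to 2 kb, 41.0% with 2 to 4 kb and 56.8% of 819 genes with 4 kb or more. Among genes under 1 RPKM with vehicle the same shares were 20.7%, 38.7%, 55.1%, 61.9% and 75.5%. Gata3 belonged to the last class. So did Ccnd2, with 6068 bases covered in untreated Parental cells and 4128 in I53S cells with OHT, and Hand1, with 5267 and 2053 bases.

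Accessory subunits of PRC2 differed in how many of these promoters kept a peak. JARID2, an accessory subunit of PRC2.2, had peaks at 74.0% of the higher genes in I53S cells with vehicle, at 21.4% after 48 h of OHT and at 8.65% after 72 h, times taken from the library titles. MTF2, an accessory subunit of PRC2.1, had peaks at 80.9%, 68.8% and 61.1%. The series also holds another library of each of these subunits in I53S cells with OHT for 72 h, which was not used. Peaks of CBX7, the reader of canonical PRC1, went from 68.9% in untreated Parental cells to 0.344% in I53S cells with OHT, and were at 47.1% in WT cells with OHT. At Gata3 MTF2 peaks covered 7462 bases and JARID2 peaks 0 bases after 72 h.

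Whether OHT acts differently in I53S and in WT cells was tested as the difference of the log2 fold changes. It was larger in I53S cells for 38 genes (0.209%) and smaller for 25 (0.138%), where smaller means a stronger fall or a weaker rise. Over the 38 genes the median log2 fold change was 3.46 in I53S cells and 0.62 in WT cells, and over the 25 it was −2.60 and −0.31. Gata3 rose by 5.46 in I53S and by 2.13 in WT cells (difference 3.33, edgeR adjusted p = 0.00348), Esx1 by 4.12 and 1.67 (difference 2.45, edgeR adjusted p = 0.00337) and Ccnd2 by 4.99 and 2.23 (difference 2.75, edgeR adjusted p = 0.00971). Etv4 was at 2.56 and 3.29 CPM in WT cells with vehicle and 0.703 and 2.24 CPM with OHT, against a rise in I53S cells (difference 5.33, edgeR adjusted p = 0.00546). Dgat2, an enzyme of triglyceride synthesis, differed by 2.42 and Dclk1, a kinase bound to microtubules, by 3.03.

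Of the genes that fell, Tdgf1 was at 588 and 594 CPM in WT cells with OHT, against 603 and 725 CPM with vehicle (difference −2.37, edgeR adjusted p = 0.000132). Lefty2 reached 673 and 621 CPM in WT cells, from 1230 and 1368 CPM (difference −2.30, edgeR adjusted p = 0.000346), and Manba 347 and 278 CPM, from 443 and 473 CPM (difference −2.46, edgeR adjusted p = 0.000132). 6330410L21Rik was at 9.07 and 7.34 CPM in WT cells with vehicle and at 10.3 and 8.82 CPM with OHT (difference −7.32, edgeR adjusted p = 5.61e-06). Aoah (−3.20), Pecam1 (−2.05) and Tdgf1-ps1 (−2.74) also differed. Of the 38 and 25 calls, 1 (Etv4) and 8 were made in every fit that left out 1 library of either line. Without WT vehicle replicate 1 the counts were 7 and 10, without WT OHT replicate 1 2 and 8, and without I53S vehicle replicate 2 17 and 17; Gata3 was at 3.10 and not called without WT vehicle replicate 1 (edgeR adjusted p = 0.0610).

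**Figure D4:**
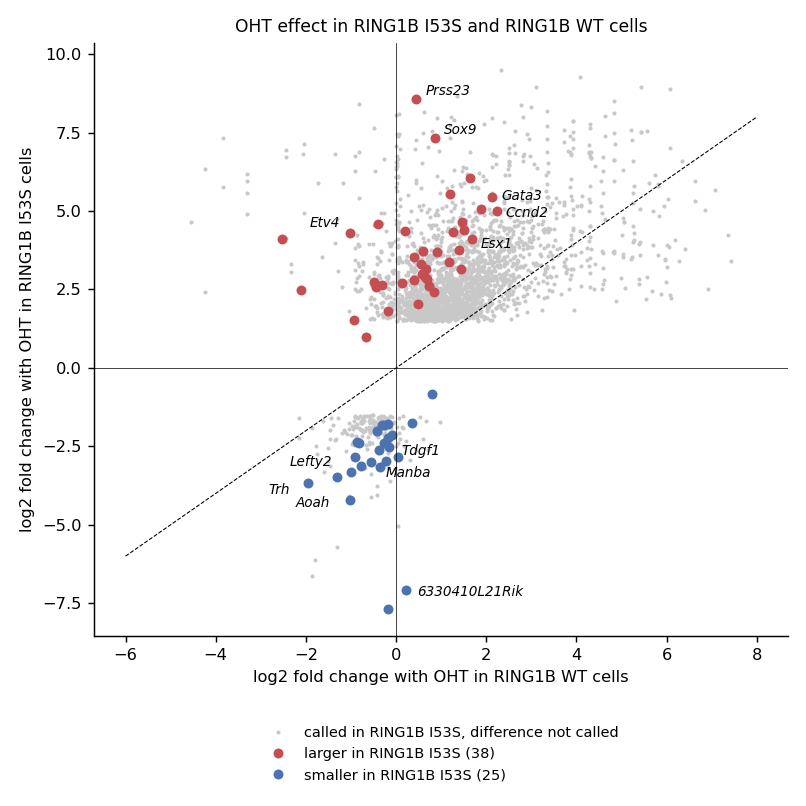
The log2 fold change with OHT in WT cells (horizontal) and in I53S cells (vertical), for genes called in I53S cells (grey) or for the difference between the lines (38 larger, red; 25 smaller, blue), with equal effects on the dashed line. Gata3, Esx1 and Ccnd2 rise in both lines and lie above the line, and Tdgf1 lies near 0 in WT cells.

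In WT cells alone 244 genes (1.34%) were higher and 7 (0.0386%) lower with OHT. Of the 2323 genes higher in I53S cells 228 were also called higher in WT cells, 9.82% of the first list and 93.4% of the second, and their median log2 fold change in WT cells was 1.27 over all 2323. Without WT vehicle replicate 2 the count of higher genes in WT cells was 21 and without WT OHT replicate 2 it was 28. The lower genes in WT cells were 4, 18 and 2 without WT vehicle replicate 2, WT OHT replicate 1 and WT OHT replicate 2.

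No gene passed for a difference between I53S and Parental cells by edgeR or by DESeq2, and 488 genes (2.69%) had an unadjusted p under 0.05. Parental cells had 2748 genes (15.1%) higher and 333 (1.83%) lower with OHT. Of the genes higher in I53S cells 2020 were also called higher in Parental cells, 87.0% of the first list and 73.5% of the second, and of the lower ones 132, 70.2% and 39.6%. Each line has its own vehicle libraries. Among the genes with the lowest p for the difference, all with an edgeR adjusted p of 1, were Hand1 (log2 fold change 3.19 in I53S and 6.33 in Parental cells), Efna5, an ephrin (1.30 and 3.29), and Htr5b, a serotonin receptor (2.91 in I53S cells; 0 and 0 counts with vehicle and 93 and 67 with OHT in Parental cells), on the side of a smaller effect in I53S cells, and Gja1, a gap junction protein (−0.045 and −1.31), and Zic5 (−0.96 and −2.51) on the other. With 2 libraries per group, a test that finds no difference does not show that the effects are equal.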

How the data were processed

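RNA-seq was made by SMART-seq2 from poly-A RNA, without strand information. The authors aligned reads to mm10 (GRCm38) with STAR 2.7, removed duplicates with samblaster, kept unique reads and counted exons of GENCODE M21 with featureCounts; the deposited RNA values are raw counts per gene name, and 108 names stand for several gene models. ChIP-seq reads were aligned with Bowtie 1.2.2 and peaks called by the authors with MACS2 2.1.1 per library; the deposited peak score is a −log10 p-value of at least 10.

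Groups came from the labels. The members and gene lists were chosen with earlier results of these data known. Of 55341 gene names 18154 passed filterByExpr over the 6 groups. The 12 RNA libraries were fitted together in R 4.3.3 with edgeR 4.0.16 (TMM, glmQLFit, glmQLFTest) and p-values adjusted by Benjamini-Hochberg over all genes tested; a call needed a log2 fold change of at least 1.5 in either direction and an adjusted p under 0.05. Folds against 0 used a floor of 3 counts over the group. RPKM was computed from TMM-scaled CPM and exon length. Genes named are the 10 with the lowest p in each direction, 4 of each list with the lowest p, members of lists of 20 genes or fewer, the cell type markers, Rnf2 and Ring1, the genes furthest above 0 counts in vehicle, and those with the lowest p for a difference between lines; Foxd3, Klf2, Bcorl1, Pcgf5, Taf7l and the genes named only in the closing section were chosen after their values were seen. A few genes that the rule names are not reported here. Alternatives included DESeq2 1.42.0, other filters and thresholds, blocks and fits without 1 library. On simulated counts for the I53S comparison (17441 genes), edgeR called 2%, 66%, 90% and 94% of 50 genes with a true log2 fold change of 1, 2, 3 and 5, with 2 false calls. Each gene was drawn at its mean over the 12 libraries with independent noise, and as many genes rose as fell. These shares and false calls therefore need not hold for genes near 0 with vehicle or for noise shared between genes. Wilson intervals and floors cover counting error only.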

Additional observations from a re-analysis of the deposited data

Results flagged for a closer look

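The effect of OHT differed between I53S and WT cells, by a test of the difference itself, for 38 genes with a larger and 25 with a smaller log2 fold change in I53S cells. The genes with the lowest p on the larger side were Esx1 (difference 2.45), Gata3 (3.33), Etv4 (5.33), Dgat2 (2.42) and Dclk1 (3.03). On the smaller side they were 6330410L21Rik (−7.32), Manba (−2.46), Aoah (−3.20), Pecam1 (−2.05) and Tdgf1-ps1 (−2.74). Each line is a single engineered line, so the mutation and other differences between the lines cannot be told apart.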

How the results depend on the processing

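With a filter of at least 10 counts in every library, which drops the genes near 0, the I53S counts were 645 higher and 75 lower, those in Parental cells 857 and 152, 77 genes were higher in WT cells and 23 differences were larger in I53S than in WT cells. With no filter, WT cells had 466 higher and 17 lower genes and 165 differences were larger in I53S cells. With an adjusted p under 0.05 and no fold threshold, 1519, 2250 and 56 genes were lower in I53S, Parental and WT cells, and with a log2 fold change of at least 1 the counts were 461, 844 and 29. DESeq2 gave 98 larger differences, and a fit of only the libraries compared gave 24, with 146 genes higher in WT cells. Leaving out 1 library at a time gave 1564 to 2239 higher and 133 to 333 lower genes in I53S cells, 21 to 251 higher and 2 to 18 lower genes in WT cells, and 2 to 47 larger and 8 to 27 smaller differences; a group left with 1 library was assumed to vary like the others. Without the OHT libraries numbered 2 of all 3 lines, an alternative chosen after seeing the data, I53S cells had 1756 higher and 184 lower genes, WT cells 0 and 0 by edgeR, and 2 differences were larger and 10 smaller. The share of higher genes with an H2AK119ub1 peak was 64.0% with a window of 1 kb and 36.2% with a peak score of at least 20, and that of the lower genes 2.66% with the latter. The causes were not tested. Egr1 changed sign without the OHT libraries numbered 2 (−0.0059), and Gja1, at −0.045 and not called, was at 0.061 with 10 counts in every library and between −0.286 and 0.220 without 1 library.

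The labels do not say that a replicate number marks a shared culture or day, and the main fit did not pair the samples by number. In a principal component analysis of the 12 libraries, replicate 2 lay above replicate 1 on the second component in each of the 6 groups. That component held 6.52% of the variance, and the I53S libraries were at −34.4 and 5.72 with vehicle and −49.1 and 18.7 with OHT. Across genes, the difference between replicate 2 and replicate 1 had a correlation of 0.198 between I53S vehicle and I53S OHT. It was 0.228 to 0.301 among the vehicle groups of the 3 lines and 0.134 to 0.181 among their OHT groups. Over all 15 pairs of groups it ran from −0.0033 to 0.301. Whether libraries of the same number share a culture or day was not tested. A replicate block within each line gave 2268 higher and 188 lower genes in I53S cells and 31 larger and 23 smaller differences, and a block common to all lines gave 2393 and 213, and 63 and 33. Of 114 genes named, 23 lost their call in I53S cells under at least 1 alternative.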

Other observations

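Gene families outside the lists above were looked at after their values were seen. Of the Lhx and Dlx homeobox genes, regulators of neurons and of limb and head, 8 of 8 and 6 of 6 tested were higher with OHT in I53S cells (median log2 fold changes 4.93 and 4.68), against 12.8% of all genes. Potassium channel genes gave 17 of 31 (median 2.54, and 0.51 in WT cells), among them Kcna1, with 2 and 0 counts with vehicle and 129 and 123 with OHT (6.92). Collagen genes gave 21 of 40 (median 2.00). Psmb8, a subunit of the immunoproteasome, had 8 and 10 counts with vehicle and 233 and 391 with OHT (5.18), in a family of proteasome genes with 2 of 47 higher. None of 84 cytosolic and none of 74 mitochondrial ribosomal protein genes was higher.

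Of 19 targets of ATF4, the transcription factor of the amino acid and stress response, 8 fell, none rose and the others did not pass, against 1.04% of all genes called lower. This family was also picked after its values were seen. The median log2 fold change was −1.34 in I53S cells, −1.03 in Parental cells and −0.51 in WT cells, and the summed level in I53S cells was 5908 and 7179 CPM with vehicle and 2361 and 3892 CPM with OHT. Slc7a3, a transporter of cationic amino acids, had 3876 and 4665 counts with vehicle and 338 and 808 with OHT (−2.85), and Chac1, which degrades glutathione, 1123 and 784 against 117 and 212 (−2.43). Trib3 (−1.91), Atf5 (−1.68) and Nupr1 (−1.65) also fell, and Atf4 itself was at −1.07 and not called. Gdf15, Ddit3 and Psph were called in the fit of all libraries but not in each fit that left out 1.

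Immediate early genes were high in OHT replicate 2 of every line. Their summed level in I53S cells was 455 and 411 CPM with vehicle and 865 and 4428 CPM with OHT, in Parental cells 460 and 413 against 1209 and 3743 CPM, and in WT cells 440 and 375 against 526 and 2582 CPM. Of 17 tested 13 were called higher in I53S cells, with Fos, Fosb, Egr1 and Junb not called without OHT replicate 2. Ccn1 was called in each fit that left out 1 I53S library, with 86 and 52 counts with vehicle and 956 and 3000 with OHT (4.92).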
